A study of Homo sapiens with 92 samples.

Results

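The cytosolic ribosomal protein genes were taken by name: all genes whose symbol is RPL, RPS, RPLP or RPSA with its number and, at most, one letter for a copy or paralogue. The rule found 82 genes, 49 of the large and 33 of the small ribosomal subunit, among 48905 genes kept from the files. Newly made RNA was measured by SLAM-seq, in which RNA made in the presence of 4-thiouridine (4sU) is treated with iodoacetamide, so that labelled uridines are read as C in place of T. A read that carries such a change is called converted here. The series comprised 92 libraries in 32 groups and asked what loss of NIPBL, the protein that loads cohesin on chromosomes, does to transcription. All libraries carried the genotype mGreenLantern-P2A-FKBP12(F36V)-NIPBL, so controls and treated cells share the tagged NIPBL, and dTAGV-1, which directs the FKBP12 tag to degradation, was set against DMSO, its vehicle. The dividing cells were of the single clone NIPBL-D7 of hTERT RPE-1, a line of human retinal pigment epithelium made immortal with telomerase.

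In the mitosis series, RPE-1 cells were synchronised by a double thymidine block and nocodazole, the drug or DMSO was added together with nocodazole for 120 min, and mitotic cells were shaken off and released. A 15 min pulse of 4sU ended at 0, 30, 60, 90 or 120 min with 3 or 4 libraries in each arm, and at 4, 6 or 8 h with 2 libraries in each arm. In the release series, dTAGV-1 or DMSO was present only after release, with 3 libraries in each arm at 30, 60, 90 and 120 min. Both series also had 3 libraries in each arm with 4sU for the whole 120 min after release. Cardiomyocytes and neurons made from WTC11 iNgn2 human induced pluripotent stem cells received dTAGV-1 or DMSO for 4 h and 4sU for 120 min, with 2 libraries in each arm. One label field of these 8 libraries names hTERT RPE-1, whereas the titles and growth protocol name WTC11. The labels do not say whether replicates came from separate cultures, so the p-values measure the spread between these libraries, which may be technical.

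Ribosomal proteins assemble with ribosomal RNA in the nucleolus and are needed in equal numbers, and a proliferating cell spends much of its transcription on them. Most of their mRNAs belong to the TOP class: they start with a C followed by a run of pyrimidines, are very stable and abundant, and are translated under the control of mTOR and LARP1. Transcription falls when chromosomes condense in mitosis and resumes as cells enter G1, which is the interval sampled here. In bulk libraries such as these, fewer cells of a type and less RNA per cell cannot be told apart.

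The tract was looked for as a C at an annotated start followed by at least 4 bases that are all C or T, read on the strand of the gene. RefSeq promoter windows were held for 64 of the 82 members, and 46 of these (71.9%) had the tract at an annotated start. Over all genes with a window the share was 1404 of 27305 (5.14%), over mitochondrial ribosomal proteins 6 of 69 (8.70%) and over ribosome biogenesis factors 3 of 39 (7.69%). The windows below, from RefSeq on GRCh38.p14, hold 15 bases before and 15 bases from the annotated start, with the tract in capitals. They are starts of members with large differences from 0 to 120 min, by label length or between cell types, and both classes are among them.

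RPL41, chr12:56116618-56116647, plus strand: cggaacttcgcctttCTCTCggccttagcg
RPL37A, chr2:216498829-216498858, plus strand: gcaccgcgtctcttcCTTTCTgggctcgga
RPS27, chr1:153990747-153990776, plus strand: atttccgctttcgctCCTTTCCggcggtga
RPLP0, chr12:120201097-120201126, minus strand: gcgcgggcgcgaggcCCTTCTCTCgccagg
RPS14, chr5:150449725-150449754, minus strand: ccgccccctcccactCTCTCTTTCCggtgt
RPS26, chr12:56041903-56041932, plus strand: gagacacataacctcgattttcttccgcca
RPS29, chr14:49598696-49598725, minus strand: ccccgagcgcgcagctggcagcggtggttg
RPS27L, chr15:63157463-63157492, minus strand: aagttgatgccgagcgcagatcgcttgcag

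RPL41, RPL37A, RPS27, RPLP0 and RPS14 showed the tract, and RPS26, RPS29 and RPS27L did not show it at the starts RefSeq lists. A match describes these letters only, and its absence says only that they are not in this window.

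Of the 82 members, 75 (44 large-subunit, 31 small-subunit) passed the filter on low counts in each fit, and the others could not be followed. RPL17, RPL26, RPL36A and RPS10 had 0 converted reads in all 92 libraries together and 1, 8, 5 and 4 reads in all. Each overlaps a longer gene on its own strand that carried reads instead, such as RPS10-NUDT3 with 8048 converted reads over all libraries. RPL3L and RPL10L, paralogues known for expression in few tissues, had 43 and 46 converted reads over all libraries, and RPS10L had 10. Another gene overlaps 37 of the 75 members that passed, and 796 ribosomal protein pseudogenes are listed in the files, so reads could be split between copies for some members. Per kilobase of gene span and averaged over libraries, converted reads, as CPM (counts scaled to one common library total), were highest at RPS6 (51.2 CPM per kb), RPS12 (49.1) and RPLP0 (45.5). They were lowest at RPL37A (2.02), whose listed span reaches 81.0 kb, RPL36 (1.21) and RPL39L (0.139). The top of this order depended on the libraries: RPLP0 led in the mitosis series with 15 min of label (63.8), RPL10A in both RPE-1 series with 120 min of label (44.6 and 38.6), and RPS6 in the others. RPL36 and RPL39L were the lowest in each kind of library.

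Libraries held 0.419 M to 35.4 M converted reads and 10.7 M to 114 M reads in all. No library without 4sU was among the 92, so the share of converted reads that arises without label was not measured, and with 15 min of label as few as 0.0606% of T positions over all genes were read as C. In DMSO at 0 min (15 min of 4sU) the pseudogenes averaged 0.589% of converted but 0.0437% of all reads. In the mitosis series in DMSO with 120 min of 4sU these means were 0.148 and 0.0750%. Whether converted reads of the pseudogenes, or of members that resemble them, are new RNA was not tested. One library stood apart: the third DMSO replicate of the mitosis series at 120 min (15 min of 4sU), with 0.644 M converted reads. Members took 2.53% (95% Wilson interval, counting error only, 2.52 to 2.54) of all its reads against 1.38 to 1.45% in the other libraries of its group, and their pseudogenes took 1.19% of its converted reads against 0.460 to 0.657%. For the change from 0 to 120 min, counts and the named genes whose call depends on this library are given with and without it. Sums of 2 marker lists set the cell types apart: the 8 cardiomyocyte markers summed to 3830 to 4616 CPM of converted reads in cardiomyocytes and 28.3 to 65.3 in neurons, and the 8 neuron markers to 182 to 321 and 2202 to 2327. Some other markers were high in both. In DMSO SLC1A3, of neural progenitors and glia, averaged 290 CPM in cardiomyocytes and 334 in neurons. Of the pluripotent list LIN28A averaged 113 and 170, whereas POU5F1 averaged 0.286 and 0.492 and NANOG 0.113 and 0. The pigment epithelium marker RPE65 had no converted read in the RPE-1 mitosis libraries with 120 min of 4sU. Of the other members of its list, RLBP1 and TYR had few converted reads there, at group means of 0.0228 to 0.0704 CPM. Since no library lacked 4sU, so few reads cannot be told from those converted without label. MITF passed the count filter with 15 min of label, and rose by 1.26 ± 0.20 (log2, SE) from 0 to 120 min in DMSO without the library that stood apart. NIPBL mRNA does not check a degron that acts on protein, and among the averaged drug comparisons it passed only at 4 to 8 h, 0.36 ± 0.08 (log2, SE) higher with dTAGV-1.

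The share of converted reads that came from ribosomal protein genes was 0.749, 0.910 and 0.899% in the 3 DMSO libraries at 0 min, in arrested cells. It was 0.766, 0.925 and 0.943% at 30 min, 1.03, 1.01, 1.04 and 1.14% at 60 min, and 0.953 to 1.06% at 90 min. At 120 min it was 1.16, 1.13, 1.78 and 1.07%. The DMSO libraries at 60, 90 and 120 min all lay above those at 0 min, and those at 30 min overlapped them. The members' share of all reads also rose in DMSO. It was 0.906 to 1.29% at 0 min, 1.17 to 1.33% at 60 min, 1.18 to 1.46% at 90 min and 1.38 to 2.53% at 120 min. The share of converted reads divided by that of all reads averaged 0.770, 0.841, 0.737 and 0.768 at these times, so it was not higher at 120 min than at 0 min. With dTAGV-1 the share of converted reads was 0.783 to 0.989% at 0 min, 0.953 to 1.196% at 60 min, 0.805 to 1.05% at 90 min and 1.03 to 1.11% at 120 min. The libraries at 60 and 90 min overlapped those at 0 min, and those at 120 min did not. At 4, 6 and 8 h the share was 0.610 to 0.939% over both arms. With 120 min of 4sU it was 0.584 to 0.891% in the mitosis series and 0.404 to 0.637% in the release series. By group mean it was lowest in the differentiated cells, all with 120 min of 4sU, at 0.377 to 0.398% in cardiomyocytes and 0.359 to 0.422% in neurons. The lowest release library with that label, at 0.404%, lay within the range of neurons. Members held 1.27 to 1.38% of all reads in cardiomyocytes and 1.502 to 1.73% in neurons.

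**Figure D1:**
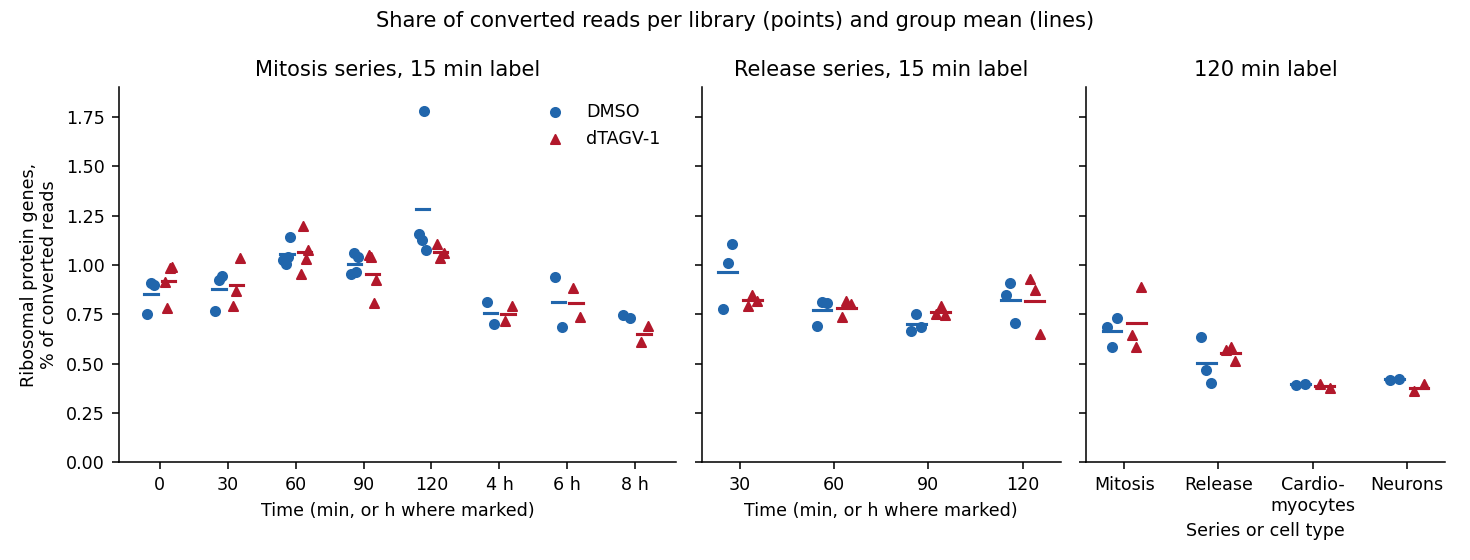
Percent of converted reads from ribosomal protein genes in each library (points, blue circles for DMSO and red triangles for dTAGV-1) with group means (lines), by time and label. In the mitosis series with 15 min of label, DMSO libraries lie at 0.749 to 0.910% at 0 min and at 1.07 to 1.16% at 120 min apart from 1 at 1.78%, and cardiomyocytes and neurons lie between 0.359 and 0.422%.

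The first comparison asked how transcription of these genes returned after mitosis. Between 0 and 120 min in DMSO, 52 of the 75 members rose and 1 fell (adjusted p under 0.05, edgeR's quasi-likelihood test with Benjamini-Hochberg adjustment over 14206 genes), where 27.8% of all genes tested were called in either direction and 14.7% as higher. At 49 of the 75 members, and at 27.4% of all genes, the libraries of the groups did not overlap. The median change was 0.65 (log2) over members and 0.06 over all genes. Both subunits took part, with 31 of 44 large-subunit and 21 of 31 small-subunit members higher. Without replicate 3 at 120 min, 32 rose (17 large-subunit, 15 small-subunit) and 1 fell, all among these 53, where 27.3% of all genes were called, and the median was 0.40. Without the libraries numbered 2 of all groups 29 rose, and without those numbered 3 28 rose and 1 fell. With totals of all reads as library sizes the median of all genes moved from 0.06 to 0.41, that of the members to 1.04, and 67 rose and none fell. Relative to each gene's own count of all reads, 24 rose and none fell. Apart from the fit without replicate 3 at 120 min, the share of all genes called under these alternatives is not given. Their counts therefore do not set members apart from all genes. The mitotic genes moved with the same interval: 6 of 8 fell, among them CDK1 from a mean of 307 to 13.9 CPM, and their part in the ribosomal result was not tested.

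RPL41, the smallest protein of the large subunit, showed the largest rise. Its 3 DMSO libraries at 0 min held 17.4, 25.1 and 23.6 CPM (TMM-scaled within the series), and its 4 libraries at 120 min held 51.3, 76.0, 128 and 62.7. No 120 min library reached down to the 0 min values, and the rise was 1.82 ± 0.38 (log2, SE; adjusted p 0.000347). RPL37A, a zinc-binding large-subunit protein, held 78.0, 108 and 97.3 CPM at 0 min against 228, 282, 366 and 274 at 120 min. It rose by 1.61 ± 0.19 (log2, SE), with no overlap. RPS26, which lies where mRNA leaves the small subunit and is mutated in Diamond-Blackfan anaemia, went from 14.5, 12.1 and 18.2 to 37.5, 47.3, 51.6 and 30.7 CPM. Its rise was 1.45 ± 0.26 (log2, SE). RPS27 and RPS29, zinc-finger proteins of the small subunit, rose by 1.31 ± 0.24 and 1.29 ± 0.21.

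RPL39L was the 1 member that fell. It is a paralogue of RPL39 known from the male germ line, and here it went from 16.5, 13.1 and 14.6 CPM at 0 min to 5.92, 5.84, 9.98 and 8.44 at 120 min. The groups did not overlap, though the 120 min values rest on 6 to 14 reads in each library, and the fall was 1.04 ± 0.29 on the log2 scale (SE). On all reads the difference was -1.02, and relative to its own count of all reads it was 0.0099. Without the libraries numbered 2 it was -0.82 and did not pass. RPS27L, a paralogue of RPS27, rose by 0.75 ± 0.20 (log2, SE).

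The P stalk, the flexible arm that recruits translation factors, is built on RPLP0 with RPLP1 and RPLP2. RPLP0 held 175, 434 and 278 CPM at 0 min and 399, 358, 827 and 439 at 120 min, and the groups overlapped. The difference was 0.77 ± 0.29 (log2, SE; adjusted p 0.0467), and 0.38 ± 0.27 without the library at 827, which did not pass. RPLP1 rose by 0.83 ± 0.20 and by 0.59 without that library. RPLP2 differed by 0.65 ± 0.25 with an adjusted p that rounds to 0.05, and by 0.34 ± 0.23 without it, which did not pass. Of the 3 proteins that bind MDM2 when ribosome assembly fails, RPL11 differed by 0.45 ± 0.17 and passed, but not without that library, at 0.32 ± 0.18. RPL5 and RPL23 differed by 0.34 ± 0.14 and 0.43 ± 0.17 and did not pass, with adjusted p-values of 0.0658 and 0.0574. RPS6, the S6 kinase substrate, and RPS27A, made as a fusion to ubiquitin, differed by 0.56 ± 0.17 and 0.59 ± 0.21 and passed, but not without it, at 0.37 ± 0.16 and 0.35 ± 0.20. Of 8 tested genes known from Diamond-Blackfan anaemia 6 rose, and 5 without that library, with RPS7 at 0.85 ± 0.15, RPS24 at 0.74 ± 0.15 and RPL35A at 0.66 ± 0.19. RPS19, the gene most often mutated in that disease, differed by 0.41 ± 0.26 and did not pass.

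The order in time differed between members. At 30 min none of the 14206 genes (0%) passed by edgeR, no member had an unadjusted p under 0.05, and DESeq2 called no member either. At 60 min 19 members were higher and none lower (35.9% of all genes called), and at 90 min 17 were higher and 1 lower (24.3%). These comparisons share the 0 min libraries. RPS29 stood highest at 60 min, at 140, 117, 120 and 146 CPM against 29.6, 47.2 and 35.5 at 0 min, a rise of 1.84 ± 0.21 (log2, SE). At 120 min it held 82.2, 90.8, 96.5 and 90.4 CPM, below all its 60 min libraries. RPL39L was still at 14.7, 14.4, 15.9 and 14.2 CPM at 60 min, within its range at 0 min, and was lower at 90 min by a fall of 1.04 ± 0.28.

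**Figure D2:**
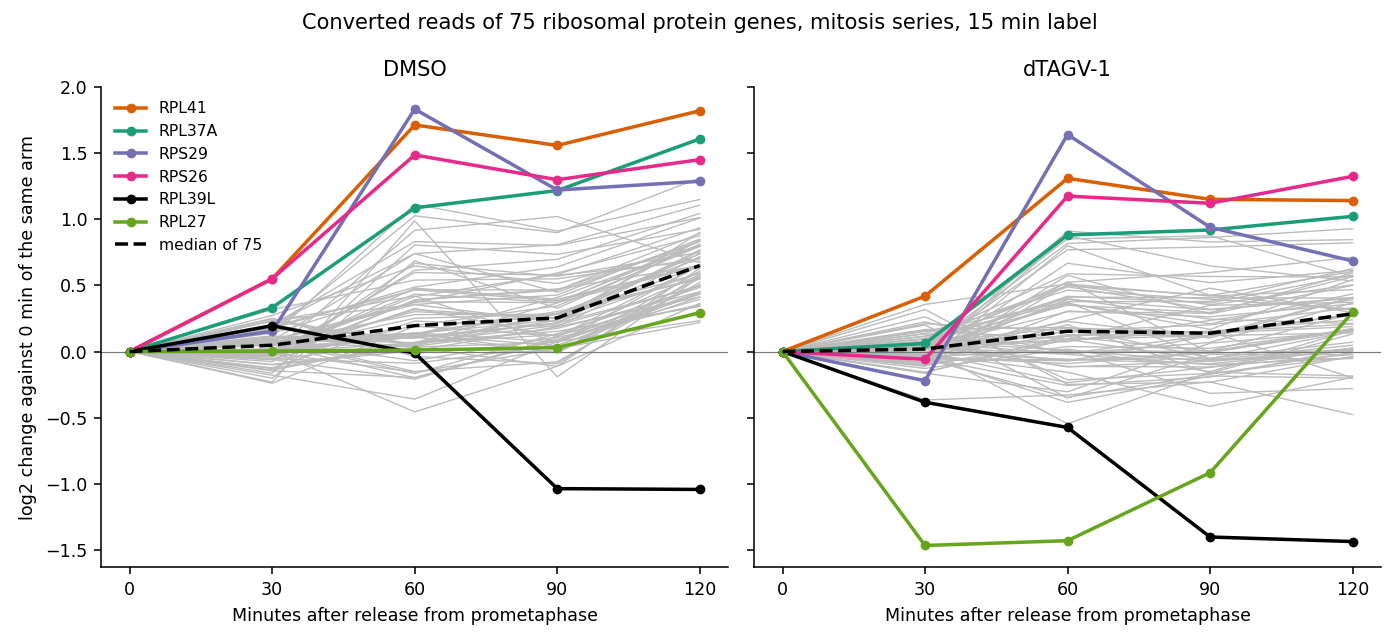
Mean log2 change of converted reads against 0 min of the same arm for 75 ribosomal protein genes (grey lines) at 30, 60, 90 and 120 min after release, with 6 named genes in colour and the median dashed. In DMSO the median rises to 0.65 at 120 min, RPS29 peaks at 60 min at 1.84, and RPL39L ends at -1.04; with dTAGV-1 the RPL27 line starts from 1 library at 0 min with 567.8 CPM.

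Under dTAGV-1 no member was called at 30 min (0% of all genes; 2 at an unadjusted p under 0.05, none by DESeq2). At 60 min 20 members were higher and 2 lower (38.1% of all genes called). At 90 min the numbers were 14 and 1 (31.7%). At 120 min they were 23 and 1 (25.3%), and the median was 0.29. At 60 min 17 members were higher in both arms, which is 17 of 19 in DMSO and 17 of 20 with drug. At 120 min the 23 higher with drug were all among the 52 higher in DMSO. At all of 60, 90 and 120 min in both arms 13 of the 75 members (17.3%) and 649 of all 14206 genes (4.57%) were higher, counts in which the times of an arm share its 0 min libraries. Without the third DMSO replicate at 120 min 12 members were. The 13 were RPL21, RPL30, RPL31, RPL32, RPL37, RPL37A, RPL38, RPL41, RPS9, RPS26, RPS27, RPS27L and RPS29. RPL39L again fell, by 1.44 ± 0.26 on the log2 scale at 120 min. RPL27 was lower by 1.43 ± 0.51 at 60 min, which rests on its level at 0 min: 567.8 CPM in replicate 1 against 67.5, 89.4 and 102 in the other libraries. The test of the arms' difference in their change from 0 to 120 min called no member (0.0493% of all genes), with 13 members at an unadjusted p under 0.05 and none by DESeq2. Without the third DMSO replicate at 120 min the median of that difference was -0.21 in place of -0.43, and no member was called. With that library included, the difference for RPL37A was -0.59 (95% interval -1.10 to -0.08), and for RPL41 -0.68 (-1.66 to 0.30). Neither gene was called, and the intervals are not adjusted for the number of genes. Their values without that library are not given, so no drug effect on either gene is drawn from them.

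Loss of NIPBL was the next comparison. Averaged over 30 to 120 min of the mitosis series, no member was called (1.25% of all genes called), 4 had an unadjusted p under 0.05, DESeq2 called none, and the median was -0.07 against 0.02 over all genes. In the release series the average over 30 to 120 min called none either (2.28%), with 3 at an unadjusted p under 0.05, none by DESeq2 and a median of -0.09. With 120 min of 4sU no member was called in the mitosis series (2.46%; median -0.04) or the release series (0.718%; median 0.09), no member had an unadjusted p under 0.05, and DESeq2 called none. In cardiomyocytes none was called (4.83%; median -0.09), with 3 at an unadjusted p under 0.05, and in neurons none (2.24%; median -0.16), with 18, all of them lower; DESeq2 called none in either cell type. At 0, 30, 60 and 90 min of the mitosis series taken singly none was called (0, 0, 0 and 0.366% of all genes), with 1, 0, 1 and 1 at an unadjusted p under 0.05. At 30, 60, 90 and 120 min of the release series none was called (0, 0.0933, 0.632 and 1.4%), with 8, 0, 0 and 1, and DESeq2 called none at any of these times. With 120 min of 4sU the test of whether the drug effect differed between the series called none (0%; 2 at an unadjusted p under 0.05, none by DESeq2). At 120 min alone in the mitosis series the median was -0.30, with 20 members at an unadjusted p under 0.05, none called by edgeR, where 0.95% of all genes were, and 1 called lower by DESeq2. Without the third DMSO replicate at that time the median was -0.13 and none was called.

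**Figure D3:**
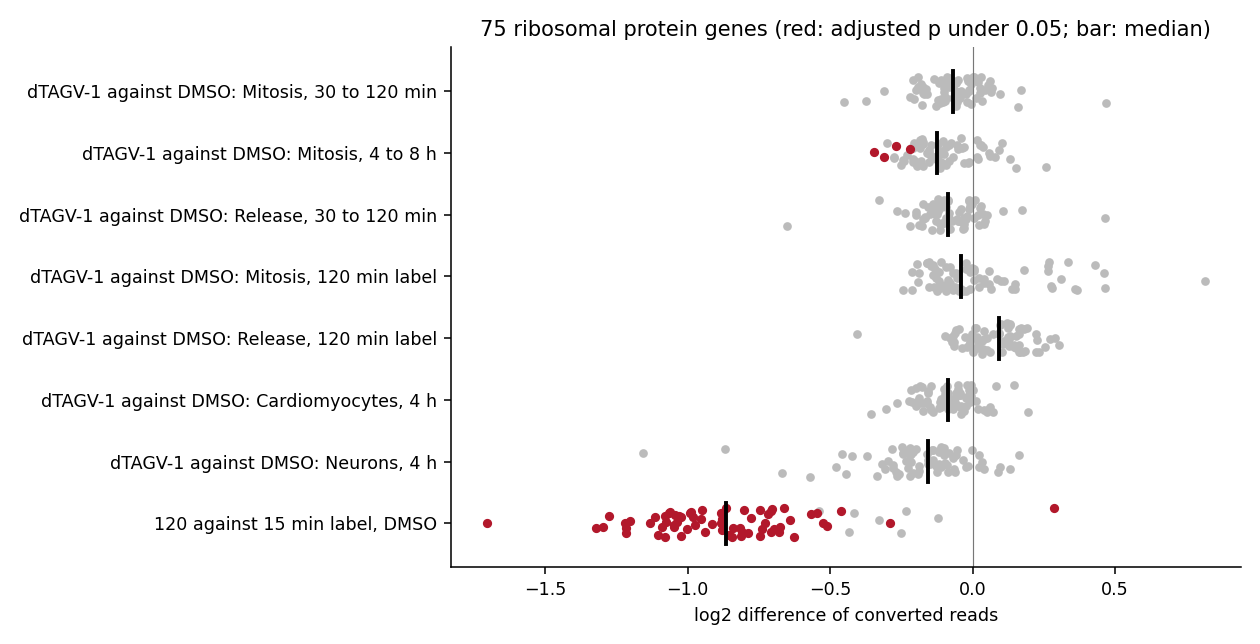
Log2 difference of converted reads for 75 ribosomal protein genes (points) in 8 comparisons, with medians as bars and genes with an adjusted p under 0.05 in red. Among the 7 drug comparisons only the 4 to 8 h average has called members, 4 of them, all lower; in the label comparison 67 lie lower and 1 higher.

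At 4 to 8 h in the mitosis series 4 members were lower with dTAGV-1 and none higher, where 19.8% of all genes were called and 10.7% as lower. The median was -0.13 over members and 0.01 over all genes. RPL32, a large-subunit protein, held 142 and 139.7 CPM in DMSO at 4 h against 124 and 115.5 with drug. At 6 h it held 183 and 139 against 126 and 126, and at 8 h 143 and 129.5 against 111 and 104. Each DMSO library lay above the drug libraries of its own time. Over all genes, the arms did not overlap, in either direction, at 42.7, 47.3 and 50.9% at 4, 6 and 8 h. The difference of RPL32 was -0.31 ± 0.08 (log2, SE; adjusted p 0.00915). RPL39, which lines the exit tunnel, differed by -0.35 ± 0.12, RPL34 by -0.27 ± 0.08 and RPL37 by -0.22 ± 0.07. The count moved between 1 and 19 when single libraries were left out, with 19 without replicate 2 of DMSO at 6 h and 1 without replicate 1 of DMSO at 6 h or either DMSO library at 8 h. It was 8 without replicate 1 of dTAGV-1 at 6 h or replicate 2 of DMSO at 4 h, 3 without replicate 2 of dTAGV-1 at 8 h, and 2 without any one of the others. On all reads no member was called, and relative to own all reads 13 were lower. The share of all genes called under these alternatives is not given, so the counts do not set members apart from all genes. At each single time no member was called (5.39, 7.09 and 8.14% of all genes at 4, 6 and 8 h), with 6, 5 and 4 at an unadjusted p under 0.05 and none by DESeq2.

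Other genes of ribosome production moved at 4 to 8 h. Of 46 ribosome biogenesis factors 26 were lower with dTAGV-1 and 1 higher, with a median of -0.33. NOP56, a core protein of box C/D snoRNPs, differed by -0.69 ± 0.11 and GNL3, the nucleolar GTPase nucleostemin, by -0.53 ± 0.08. Of 10 tested host genes of small nucleolar RNAs 7 were lower and none higher, with SNHG1 at -0.78 ± 0.13. MYC, an activator of ribosome production, was lower by a difference of -0.97 ± 0.12. Of 69 mitochondrial ribosomal proteins 2 were lower and none higher. The ribosomal protein median of -0.13 lay between the medians of the biogenesis factors and of all genes.

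Within DMSO, 3 members fell from 4 to 8 h and none rose, where 13.3% of all genes were called. RPS13 held 58.2 and 58.0 CPM at 4 h and 36.9 in both libraries at 8 h, without overlap, as was the case at 56.3% of all genes. It fell by 0.66 ± 0.17 on the log2 scale (SE). RPS3A fell by 0.54 ± 0.15 and RPL9 by 0.46 ± 0.14. None of the 3 was called without either library at 8 h, and 1 remained without replicate 2 at 4 h. With totals of all reads as library sizes 22 members were higher instead. How many of all genes were called in these alternatives is not given, so the counts do not set members apart. Under dTAGV-1, 3 other members fell from 4 to 8 h (12.2% of all genes called), among them RPL4 by 0.41 ± 0.13. The call of RPL27 there rests on 1 library at 4 h: it held 44.1 and 353 CPM at 4 h and 43.5 and 54.6 at 8 h. In the release series 1 member was lower at 120 than at 30 min in DMSO (2.36% of all genes), RPS15, by a fall of 2.81 ± 0.61. It held 11.5, 33.9 and 241 CPM at 30 min, so the call rests on replicate 3, and 13.3, 17.1 and 10.7 at 120 min. Under dTAGV-1 none was called over that interval (5.39%), with 3 at an unadjusted p under 0.05 and none by DESeq2.

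The length of the label gave the most called members. At 120 min after release in DMSO, averaged over both RPE-1 series, 67 of the 75 members were lower and 1 higher with 120 min of 4sU than with 15 min, where 49.5% of all genes were called and 24.2% as lower. The median was -0.87 over members and 0.06 over all genes. This sets the member's place among converted reads, not its amount: with totals of all reads as library sizes the median of all genes moved to 2.63 and all 75 members were higher, with a median of 1.70. On all reads no member was called and the median was -0.03. The label length and the library preparation of each label cannot be told apart. Without replicate 3 of DMSO at 120 min and 15 min of 4sU 67 were lower and 1 higher, a fit for which the share of all genes is not given. In the mitosis series alone 65 were lower and 1 higher (47.6% of all genes; 57 and 1 without that library), in the release series 48 and none (22.7%), with 45 lower in both, and under dTAGV-1 55 and 1 (50.6%).

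RPLP0, the base of the P stalk, had the largest difference averaged over both series. In the mitosis series it held 399, 358, 827 and 439 CPM after 15 min of 4sU and 104, 59.8 and 84.2 after 120 min. In the release series it held 179, 177 and 138 against 133, 98.6 and 56.2, each label scaled within its own libraries. Values scaled apart cannot be ranked between the labels. In a common scaling the difference was -1.71 ± 0.21 (log2, SE) over both series, and -1.53 without the library at 827. It was -2.50 ± 0.31 in the mitosis series and -0.91 ± 0.30 in the release series, where RPS26 had the largest, -1.28 ± 0.19. RPS2, at the small subunit's mRNA entry site, differed by -1.32 ± 0.28, but by -2.22 ± 0.41 in the mitosis series and -0.43 ± 0.41, not called, in the release series. RPS14, on the small-subunit platform, differed by -1.30 ± 0.14 and alike in both series, at -1.38 ± 0.19 and -1.22 ± 0.20. RPLP1, RPL5, RPLP2, RPL23 and RPL11 differed by -1.08 ± 0.12, -0.75 ± 0.11, -0.73 ± 0.21, -0.63 ± 0.16 and -0.53 ± 0.13.

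RPS29 was the 1 member higher, at 0.28 ± 0.10 (log2, SE; adjusted p 0.024). In the mitosis series it held 82.2, 90.8, 96.5 and 90.4 CPM after 15 min and 133, 129 and 147 after 120 min, each label scaled within its own libraries. The difference in a common scaling was 0.70 ± 0.14. In the release series it held 67.4, 95.01 and 84.4 against 95.3, 79.4 and 73.3, and the difference there was -0.13 ± 0.15 and not called. Relative to its own all reads the averaged difference of RPS29 turned to -0.14. RPS24 (-0.23 ± 0.12) and RPL28 (-0.12 ± 0.17) were among the 7 members that did not pass. Among related genes, 10 of 15 translation factors and other TOP mRNAs were lower and none higher, with EEF1A1 at -1.30 ± 0.17. Of the snoRNA host genes 7 of 10 were lower, and of 46 biogenesis factors 3 were lower and 22 higher.

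The share of T positions read as C gives each gene's label without reference to other genes. After 120 min of 4sU in DMSO, its median over the 75 members was 0.546% in the mitosis series, 0.479% in the release series, 0.448% in cardiomyocytes and 0.246% in neurons. Over 13650 genes with a mean of at least 100 reads over all 92 libraries the medians were 1.34, 1.42, 1.44 and 0.931%. Most of these libraries were of RPE-1, so a gene could be included with few reads in cardiomyocytes or neurons. A dose of 4sU was recorded for the RPE-1 libraries but not for cardiomyocytes and neurons, so equal labelling cannot be assumed between them. Of the 75 members 68, 73, 71 and 71 lay below the median of all genes in the respective groups. At 0 min with 15 min of label both medians were low, 0.0569% over members and 0.0642% over all genes. In the same long-label DMSO libraries members took 1.45 to 1.63% of all reads in the mitosis series and 1.29 to 1.81% in the release series, against 0.584 to 0.731% and 0.404 to 0.637% of converted reads.

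Members ranged widely in this share. RPS29 was the highest in the mitosis series at 2.80%, RPL21 in the release series at 1.94%, and RPS26 in cardiomyocytes at 2.10% and in neurons at 1.16%. RPS2 was the lowest in the mitosis and release series, at 0.163 and 0.215%, and RPL8 in cardiomyocytes and neurons, at 0.207 and 0.114%. RPL21, RPL31, RPL37A, RPL41, RPS15A, RPS26 and RPS29 were among the 10 highest in all 4 groups, and RPLP0 and RPS2 among the 10 lowest. Across the 75 members the rank correlation between pairs of groups ran from 0.68 to 0.92, a description over genes that share sequence and base composition between groups.

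**Figure D4:**
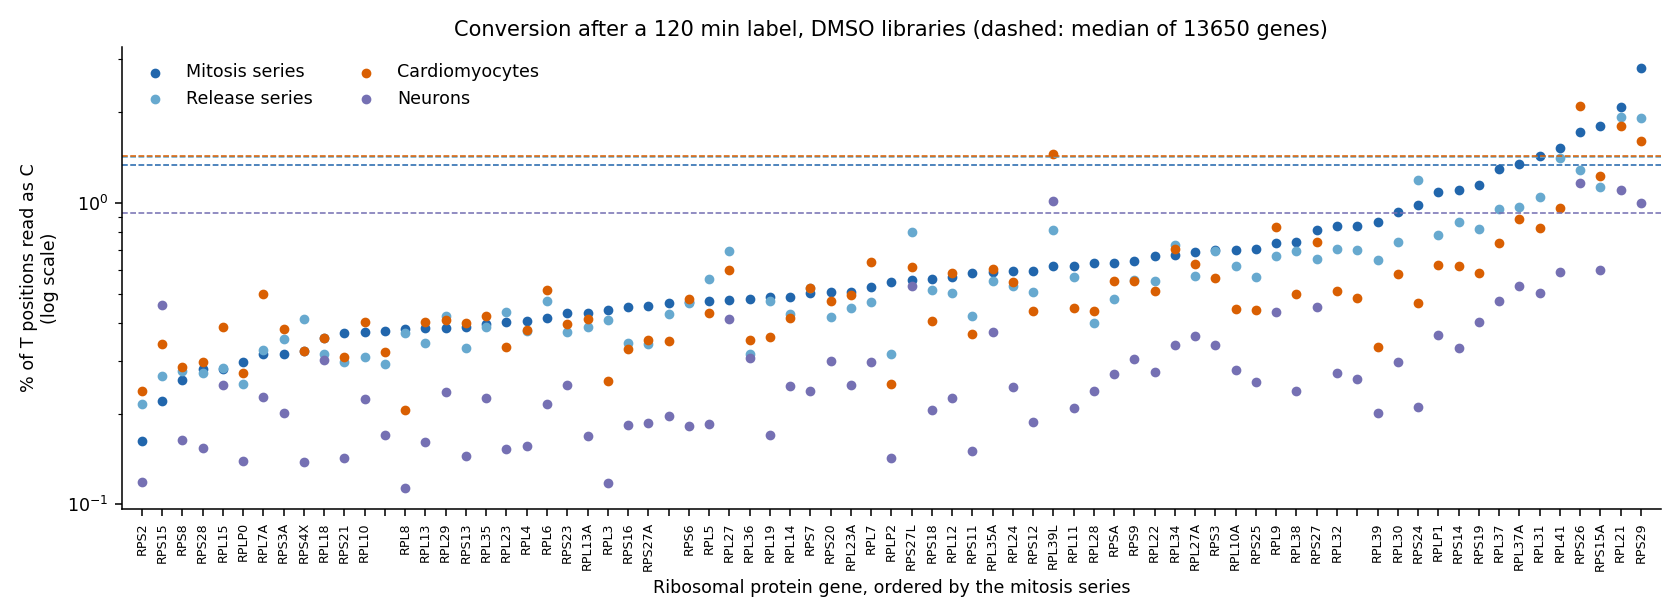
Percent of T positions read as C (log scale) for 75 ribosomal protein genes in DMSO libraries with 120 min of 4sU, ordered by the mitosis series, with dashed lines at the median of 13650 genes; not every gene is labelled. Most members lie below the dashed lines, from 0.163% at RPS2 to 2.80% at RPS29 in the mitosis series, and neurons lie lowest.

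Neurons and cardiomyocytes were compared in DMSO. Of the 75 members 10 were higher and 11 lower in neurons, where 53.7% of all genes were called, and the median was -0.07 against 0.01 over all genes. RPS27L held 72.4 and 67.7 CPM in neurons and 30.9 and 34.1 in cardiomyocytes, without overlap, as was the case at 77.9% of all genes. The difference was 1.11 ± 0.10 (log2, SE; adjusted p 3.15e-06). It was 1.16 ± 0.10 under dTAGV-1. RPS15A, of the small subunit, held 29.9 and 24.5 against 16.4 in both cardiomyocyte libraries, a difference of 0.73 ± 0.16 that turned to -0.27 relative to its own all reads. RPS19 held 91.3 and 99.5 against 52.4 and 65.3, a difference of 0.70 ± 0.12.

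In the other direction RPL9 held 39.4 and 34.6 CPM in neurons and 53.02 and 57.1 in cardiomyocytes, a difference of -0.57 ± 0.14. RPL24 and RPS18 differed by -0.55 ± 0.14 and -0.50 ± 0.11. With the replicate number as a block 7 members were higher and 2 lower, by DESeq2 8 and 7, with totals of all reads as library sizes 4 and 33, and on all reads 28 and 2. Relative to own all reads 1 was higher and 40 lower. For these alternatives the share of all genes called is not given, so the counts do not set members apart from all genes. Under dTAGV-1 9 were higher and 22 lower (51.7%), sharing 7 higher and 10 lower with DMSO, and the test of whether the drug effect differed between cell types called no member (0.595% of all genes; 2 at an unadjusted p under 0.05, none by DESeq2). Of 46 biogenesis factors 20 were lower in neurons and none higher, and of 69 mitochondrial ribosomal proteins 21 were lower and 1 higher. Over all genes in DMSO, 26.8% were lower in neurons and 26.9% higher. Markers of other cells moved with the cell type: all 6 endothelium and endoderm markers were lower in neurons (1.96 to 3.94 summed CPM, with SOX17 at 0, against 99.2 to 348 in cardiomyocytes), 6 of 8 fibroblast and smooth muscle markers were lower (274 to 325 against 355 to 654), and 6 of 8 mitotic markers were higher (590 to 608 against 285 to 397). Their part in the ribosomal protein differences was not tested.

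**Figure D5:**
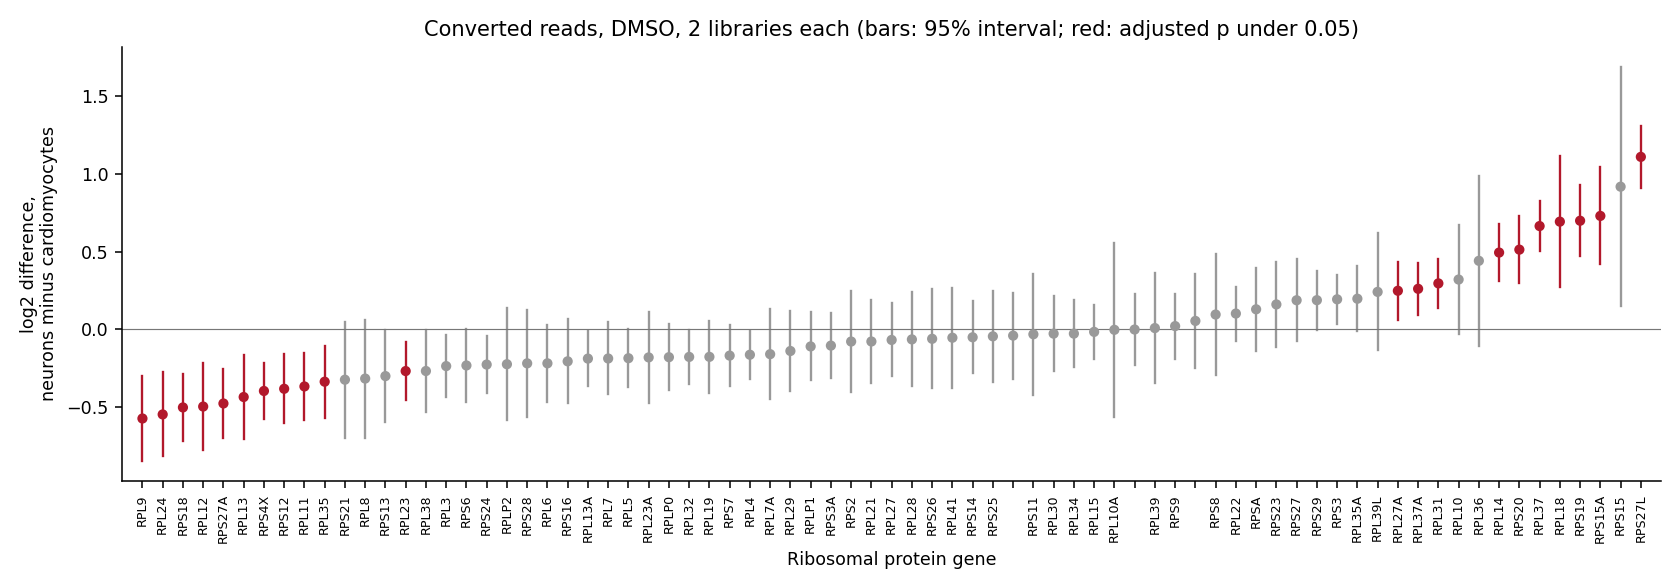
Log2 difference of converted reads, neurons minus cardiomyocytes, in DMSO (2 libraries each) for 75 ribosomal protein genes, with 95% intervals as bars and adjusted p under 0.05 in red; not every gene is labelled. The 10 red genes above 0 reach 1.11 at RPS27L, and the 11 below 0 reach -0.57 at RPL9.

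Members with and without the pyrimidine tract were set side by side in the comparisons above. From 0 to 120 min in DMSO 33 of 43 tested members with the tract and 12 of 16 with a window but no tract were higher, with medians of 0.66 and 0.68. Without the third DMSO replicate at 120 min 21.0 and 6.0 were higher, with medians of 0.47 and 0.36. With the longer label 40 and 13 were lower, with medians of -0.88 and -0.86. RPS26, RPS29 and RPS27L, printed above without a tract, were among the 13 members higher at all times in both arms, beside RPL41, RPL37A and RPS27, printed with one.

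The other genes of translation gave the setting from 0 to 120 min in DMSO. Of 7 ribosomal protein genes that the name rule does not take, 4 rose and none fell, and 1 rose without the third DMSO replicate at 120 min. RACK1, a scaffold on the small subunit, differed by 0.71 ± 0.24 (log2, SE), and by 0.45 ± 0.24 without that library, which did not pass. Of 15 translation factors and other TOP mRNAs 8 rose and 1 fell, against 4 and 2 without it. EIF4A2 rose by 1.42 ± 0.22 and EEF1A1 by 0.85 ± 0.22 (0.53 ± 0.19 without it), whereas NAP1L1, a histone chaperone with a TOP mRNA, fell by 0.45 ± 0.17. Of 10 snoRNA host genes 7 rose, with and without it, with a median over the list of 1.76 (1.68 without it) and EPB41L4A-AS1 at 2.48 ± 0.29. Of 46 biogenesis factors 22 rose and none fell, against 17 and none without it, with RRS1, a factor of the 5S particle, at 1.59 ± 0.38. Of 69 mitochondrial ribosomal proteins 18 rose and none fell, against 14 and 1 without it, and of 21 regulators of ribosomal protein mRNAs 4 rose and 3 fell, with MYC at 2.20 ± 0.32. The medians of the 75 members and of the biogenesis factors were 0.65 and 0.50, and 0.40 and 0.40 without that library.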

How the data were processed

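Converted reads and all reads per gene were deposited by the authors as raw counts for each library, and the share of T positions read as C as a fraction. Reads were processed with HISAT, Picard and HTSeq on hg38, per the submitters' processing notes, and whether counting used strand or introns is not given in the sources used here. Genes of the Y chromosome and the XIST region were left out (281). Converted counts were tested with edgeR 4.0.16 (limma 3.58.1, R 4.3.3), by quasi-likelihood with TMM scaling after filterByExpr (minimum count 10, total 15), in separate fits of the mitosis series to 120 min, 4 to 8 h, the release series, 120 min labels, differentiated cells and label length. P-values were adjusted over all genes tested (threshold 0.05). ± is the SE of a log2 difference. Alternatives were DESeq2 1.42.0, its size factors, no filter, totals of all reads as library sizes, counts of all reads, converted reads with each gene's own all reads as offset (pseudocount 0.5), the replicate number as a block, and libraries left out. The fits were tested on simulated data. Same-numbered libraries deviated together, each pair above 0.1 with at least 3 pairs, in 3 of 16 sets (0.152 to 0.581). Sets with 2 pairs could not meet this rule. Among them the mitosis series lay above 0.1 at 30 min (0.272 to 0.466), 6 h (0.188) and 8 h (0.169), but not at 4 h (0.044). Cardiomyocytes (-0.245) and neurons (0.0638) lay below it. The labels tie no numbers to shared cultures, so the series were fitted unpaired, with the replicate block as an alternative. T positions were compared over genes with a mean of at least 100 reads over all 92 libraries. Level per kb used the listed gene span.

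The members and gene lists were chosen with earlier results of these data known. Named are, per comparison, the called members with the 3 largest rises and falls, members of role lists, the 3 highest and lowest per kb, up to 3 called genes with the largest change from each other list, and NIPBL. RPL27, RPL28, RPL31, RPL21, RPL4, RPL8, RPL36, RPS3A, RPS15, RPS15A, the printed promoters and the members in lists of shared calls were chosen after their values were seen. Some items are not reported here.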

Additional observations from a re-analysis of the deposited data

Results flagged for a closer look

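Values far from the others of their group were looked for in groups of 4 libraries, where the highest or lowest value was set against Dixon's 95% critical value of 0.829. Of 210 such checks 12 passed it, and chance gives about 1 in 20. The third DMSO replicate of the mitosis series at 120 min gave 6 of the 12 as the highest value: members took 1.78% of its converted reads and 2.53% of all its reads, and RPL36, RPLP2, RPS13 and RPS3A held 68.2, 111, 159.7 and 358 CPM there. RPL36 was also lowest in replicate 4 of DMSO at 90 min, at 11.2 CPM, and highest in replicate 1 of dTAGV-1 at 90 min, at 38.7. RPLP1 and RPS15A were lowest in replicate 1 of DMSO at 90 min, at 109.9 and 22.6 CPM. RPS19 was lowest in replicate 1 of dTAGV-1 at 60 min, at 183, and RPS24 highest in replicate 4 of dTAGV-1 at 90 min, at 254.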

How the results depend on the processing

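Results are the numbers of the 75 members called. The share of all genes called under each alternative is not given in this section, so these counts do not set members apart from all genes. With totals of all reads as library sizes the median of all genes moved too, from 0 to 120 min and by label length, as given above. Over the alternatives, 108 values of the main counts stayed within 1.5 times and in direction, 39 moved and 2 reversed; of the values for named genes 397 kept direction and call, 123 kept direction only and 15 reversed. The causes were not tested. Without the low-count filter the drug called 1 member in the mitosis series, 2 in the release series, 1 with 120 min of label in the mitosis series, 1 in cardiomyocytes and 5 in neurons. On all reads 30 were called from 0 to 120 min in DMSO (dTAGV-1 4, of which 3 lower), 0 at 4 to 8 h, 0 from 4 to 8 h in DMSO, 0 by label length (dTAGV-1 1, higher), and 18 between cell types with dTAGV-1, 13 of them higher. Relative to own all reads these were 24, 13, 7 and 73, with 41 between cell types in DMSO and 1 for the drug in cardiomyocytes. With totals of all reads as library sizes they were 67, 0, 22 (higher) and 75 (higher; 73 in the mitosis series, 75 in the release series, 75 with dTAGV-1), with 4 from 30 to 120 min in the release series (3 higher), 2 for the drug in neurons and 37 between cell types.

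With the replicate number as a block, 60 were called from 0 to 120 min in DMSO, 6 at 4 to 8 h, 4 from 4 to 8 h, 71 by label length and 9 between cell types, and the drug called 0 in the mitosis series, the release series, both 120 min labels, cardiomyocytes and neurons. With libraries left out, counts ran from 29 to 55 from 0 to 120 min (33 without replicate 3 of DMSO at 120 min alone), 1 to 19 at 4 to 8 h, 0 to 4 from 4 to 8 h, 0 to 2 for the drug in neurons, 14 to 22 between cell types and 55 to 69 by label length; single libraries were left out at 4 to 8 h and in differentiated cells, a choice made after seeing the data, since leaving out a number there leaves no residual degrees of freedom, and a lone library was assumed to vary like the others.

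Named values that reversed were RPL39L at 0.0099 from 0 to 120 min, RPS15A at -0.27 between cell types and RPS29 at -0.14 by label length relative to own all reads; RPL34 at 0.0103 at 4 to 8 h and RPL11 at 0.21 by label length on all reads; and, with totals of all reads, RPS3A at 0.053 and RPL9 at 0.12 from 4 to 8 h and, by label length, RPLP0 at 0.85, RPS2 at 1.22, RPS14 at 1.27, RPLP1 at 1.48, RPL5 at 1.81, RPLP2 at 1.83, RPL23 at 1.92 and RPL11 at 2.03. Depth limits the weakest members: RPL39L rests on 6 to 14 converted reads in each DMSO library at 120 min.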

Other observations

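RPL27, of the large subunit, was far above its usual level in some libraries with 15 min of label. In 9 of 72 such libraries, 7 of them with dTAGV-1 and 2 with DMSO, 11.2 to 22.1% of its reads were converted and it held 206 to 581 CPM. In the other libraries at most 7.15% were converted and it held 40.9 to 129.8 CPM. In replicate 3 of DMSO at 30 min of the release series the share was 22.1% (95% Wilson interval 21.0 to 23.3), and in replicate 1 of dTAGV-1 at 0 min of the mitosis series 19.8% (18.5 to 21.0).

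RPS15, of the small subunit, showed the same in 2 of 72 libraries, both DMSO. In replicate 4 at 60 min of the mitosis series 9.97% of its reads were converted (9.10 to 10.9), at 154 CPM, and in replicate 3 at 30 min of the release series 14.1% (12.96 to 15.3), at 241. In the other libraries the share was at most 2.26%.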
